A study of Mus musculus with 4 samples.

Results

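The 9 genes described here encode transcription factors that T lymphocytes and natural killer (NK) cells use when they become effector cells: Id2, Tbx21, Eomes, Zeb2, Prdm1, Runx3, Maf, Rora and Gata3. They were taken from a named list, whose rule uses no measured value. All 9 are among the 14697 genes of the table of unique molecular identifiers (UMIs, each marking 1 captured mRNA molecule) for single cells of mouse peripheral blood. The blood came from C57BL/6 females of 4 months (young, 2 samples) or 24 months (old, 2 samples), and each sample pooled the blood of 2 mice, so a level is that of a pool and the spread between mice within it is not seen. Droplet-based 3′ single-cell RNA sequencing was used after density centrifugation and red cell lysis, and the labels name no treatment or transgene.

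T-bet (the product of Tbx21) and Eomesodermin (Eomes) are T-box factors that switch on genes for interferon gamma and cytotoxic granules in CD8 T cells and NK cells. Zeb2 acts with T-bet in terminally differentiated effector cells, Blimp-1 (Prdm1) represses memory programmes and drives plasma cells, and Runx3 is a Runx factor needed for the CD8 lineage. Id2 has no DNA-binding region and holds E proteins inactive, and NK cells do not develop without it. c-Maf, RORα and GATA3 are best known in helper and regulatory T cells and innate lymphoid cells, and GATA3 is also needed to make T cells at all.

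Levels were read in gates, that is, groups of cells defined by raw UMIs of 39 marker genes, none of which is a member. A T cell had at least 2 UMIs of Cd3d, Cd3e and Cd3g together, at most 1 UMI of B cell markers and no Csf1r. The T cells were then assigned in order to Treg-like cells (Foxp3, or Ikzf2 with Tnfrsf4, and no Cd8b1), Klrb1c T cells, Gzmk T cells, Cd8 T cells (Ccl5-low with at most 1 Ccl5 UMI, Ccl5-high with at least 2) and Cd4 T cells (S100a6-low and S100a6-high, with the same limits on S100a6). NK cells had no Cd3e, at least 2 UMIs of Ncr1, Klrb1c and Klre1 together and at least 2 of Nkg7. These gates held 2233 T cells and 337 NK cells, and 32.6% to 46.4% of T cells per sample fell in none of the named T subsets, most of these with neither a Cd4 nor a Cd8 UMI. Among 14588 cells, 12876 (88.3%) were gated to some type.

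The gates carried genes that were not used to draw them. A level is given in CPM: the gene's UMIs in the cells of a gate, divided by all UMIs of those cells and scaled to the total that CPM uses. Over all samples, Gzma stood at 13640 CPM in NK cells, 748 in Klrb1c T cells and 159 in Ccl5-high Cd8 T cells. Single samples ran from 28.0 (old 2) to 1364 (old 1) in Klrb1c T cells. In Gzmk T cells they ran from 52.5 (old 1) to 8082 CPM (young 2). Lef1, a factor of naive T cells, stood at 580 CPM in S100a6-low Cd4 T cells, 502 in Ccl5-low Cd8 T cells and 59.4 in NK cells.

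The samples held 2187 to 4642 cells and 9521253 to 18658072 UMIs. The median over all cells was 2233 to 3482 UMIs per cell and was lower in both young samples. T cells did not have this order, with medians of 2813 and 2660 in young and 2467.5 and 2666 in old samples. Any 2 samples shared 11 to 24 cell barcodes. Old T and NK gates held platelet RNA (Ppbp, Pf4, Gng11) that young ones nearly lacked: the summed level of these 3 genes was 0 to 32.0 CPM in young and 84.1 to 1090 CPM in old samples over the T and NK gates. B cell markers summed to 194 to 323 CPM in young and 40.2 to 645 CPM in old gates, and neutrophil markers to 0 to 32.0 and 0 to 29.7 CPM. The B cell sum is held down by the gates, which allow at most 1 UMI of Cd79a, Cd79b and Ms4a1 together per cell. Monocyte markers (Csf1r at 0 by the gate) summed to 43.6 to 551 CPM in young and 107 to 461 CPM in old gates. Red cell RNA differed between samples of one age, with 5007 and 29886 CPM in the NK cells of young 1 and young 2 and 23649 and 12069 in those of old 1 and old 2. Several old gates are small, with 12 S100a6-low Cd4 T cells in each old sample and 3 and 12 Ccl5-low Cd8 T cells, so that old 1 was left out of every mean and fit of the latter gate. Old 2 was left out likewise for Treg-like cells, with 9 cells. The p-values of the age fits are set against the spread between these pools. Those of fits with the sample as a block are set against what remains once differences between pools are taken out.

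Promoter sequence is shown for Id2, which acts on E proteins, for the T-box pair Tbx21 and Eomes, and for Prdm1, to set windows with different numbers of E-boxes side by side. Of the 9 members, 8 had a RefSeq promoter (build GRCm38.p6), and Maf was missing from that table. Each line below is the 250 bases before the transcription start, 5′ to 3′ on the gene's strand, and capitals mark the E-box letters CANNTG, the kind of site that E proteins bind and that Id2 keeps them from. The windows are those of Id2 (chr12:25096093-25096342, minus strand), Tbx21 (chr11:97115332-97115581, minus strand), Eomes (chr9:118477939-118478188, plus strand) and Prdm1 (chr10:44458749-44458998, minus strand).
Id2: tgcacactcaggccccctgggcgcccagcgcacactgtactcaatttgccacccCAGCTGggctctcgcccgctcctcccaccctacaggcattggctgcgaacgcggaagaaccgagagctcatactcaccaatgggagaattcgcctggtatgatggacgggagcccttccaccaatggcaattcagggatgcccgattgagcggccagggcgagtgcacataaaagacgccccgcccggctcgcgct
Tbx21: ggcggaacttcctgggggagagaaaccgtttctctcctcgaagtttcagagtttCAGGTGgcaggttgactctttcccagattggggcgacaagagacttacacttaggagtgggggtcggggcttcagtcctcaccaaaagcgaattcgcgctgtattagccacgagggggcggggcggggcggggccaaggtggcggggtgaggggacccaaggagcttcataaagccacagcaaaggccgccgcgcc
Eomes: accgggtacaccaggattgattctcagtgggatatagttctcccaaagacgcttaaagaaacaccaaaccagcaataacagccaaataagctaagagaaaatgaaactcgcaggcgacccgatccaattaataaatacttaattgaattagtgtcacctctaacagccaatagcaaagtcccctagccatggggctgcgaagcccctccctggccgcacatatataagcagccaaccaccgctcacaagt
Prdm1: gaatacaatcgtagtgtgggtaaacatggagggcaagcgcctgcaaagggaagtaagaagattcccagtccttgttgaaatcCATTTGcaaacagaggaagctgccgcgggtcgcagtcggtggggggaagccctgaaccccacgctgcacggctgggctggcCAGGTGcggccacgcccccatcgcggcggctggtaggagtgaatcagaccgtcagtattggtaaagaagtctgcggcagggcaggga

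The Eomes window had no E-box, those of Id2 and Tbx21 had 1 and that of Prdm1 had 2. With both strands read, the E-box letters were in 4 of 12 member windows (Zeb2 has 4 starts and Runx3 2 in the table) and in 66.2% of all 32851 promoter windows of this length. The letters CACCTG, which ZEB proteins bind and which are themselves an E-box, were in the windows of Tbx21, Prdm1 and 1 Runx3 start, against 17.2% of all windows. The Runx letters TGTGGT stood in 1 Runx3 window (2 matches) against 14.0% of all. The T-box letters GGTGTGA and the GATA letters AGATAA were in none of the 12, against 3.33% and 9.99% of all. These are matches of letters, and nothing about binding follows from them.

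**Figure D1:**
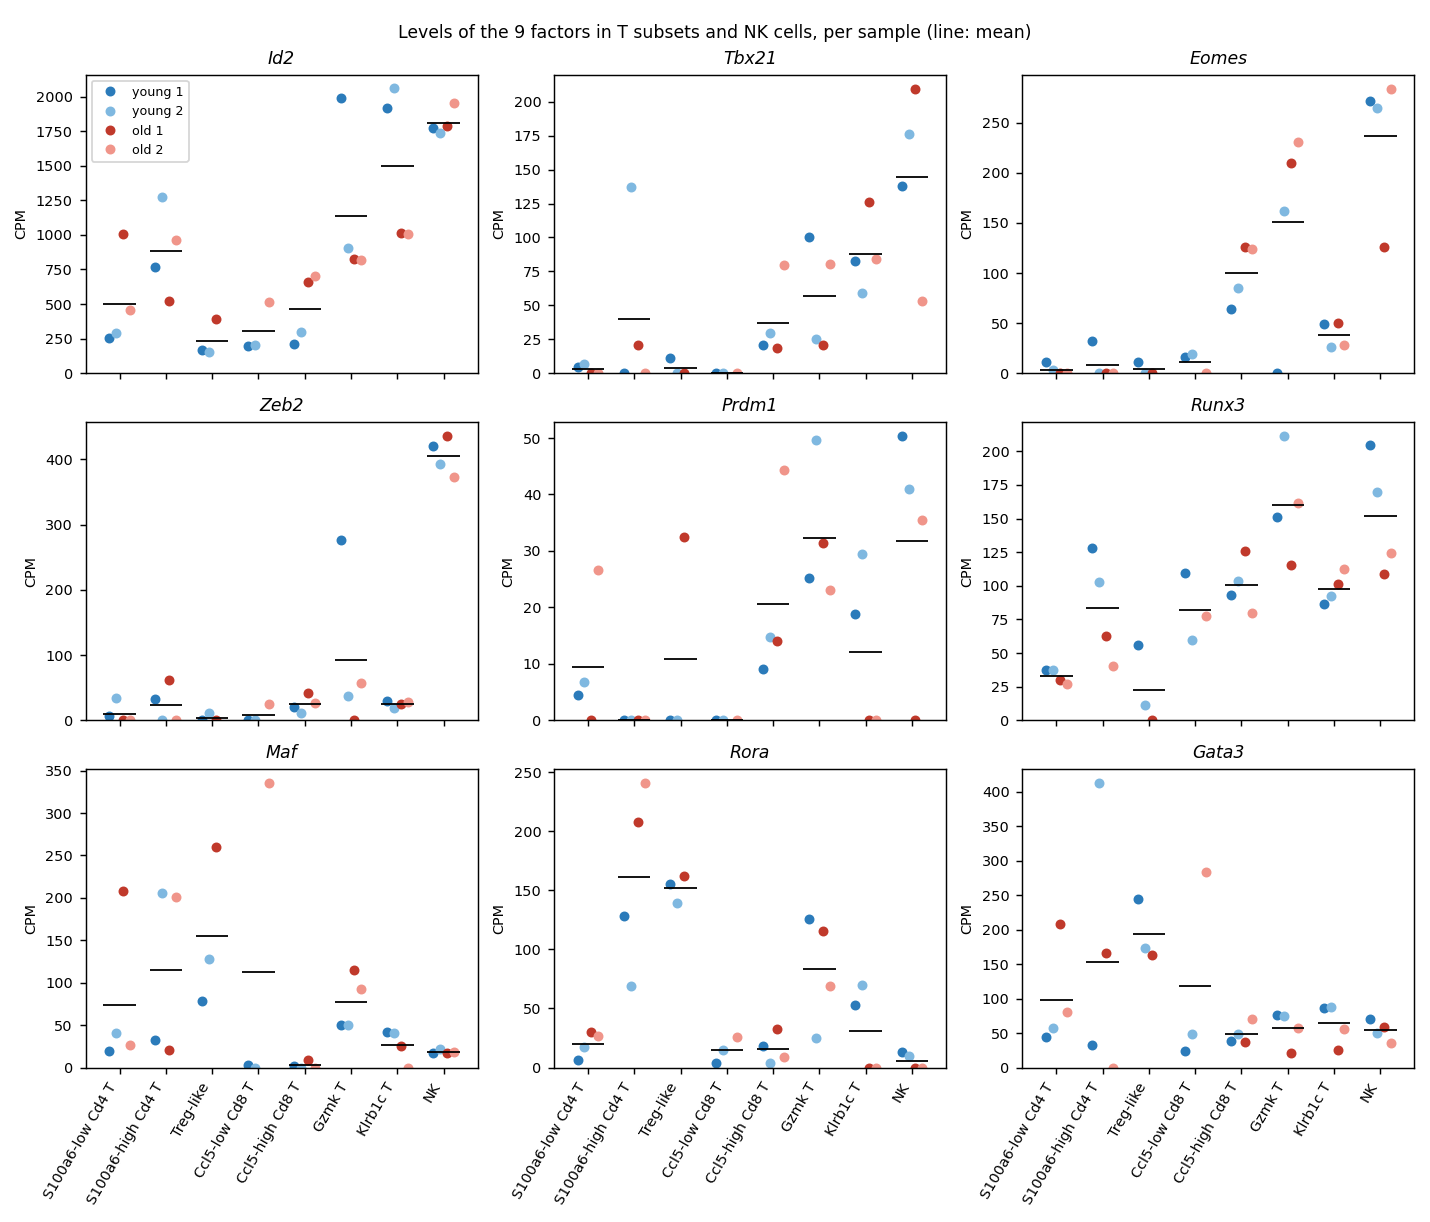
Level of each of the 9 genes in CPM (linear axes from 0, a scale for each gene) in the T cell and NK gates, with 1 point per sample coloured by sample, red shades for old, and a line at the mean. Id2 lies between 1734 and 1952 CPM in all 4 NK samples, and Zeb2 between 373 and 436, above every T cell value of Zeb2.

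Id2, the inhibitor of E proteins, was the most abundant of the 9 in NK cells, with 1773 CPM in young 1, 1734 in young 2, 1786 in old 1 and 1952 in old 2 (1811 ± 96.5, mean ± SD, n = 4). In Klrb1c T cells it lay above the NK values of the same samples in young mice, at 1918 and 2064 CPM. In old mice it lay below them, at 1011 and 1010. Gzmk T cells followed with 1987, 908, 829 and 819 CPM. The young 1 value came from 15 cells and stood above the other 3 samples.

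In the remaining T subsets Id2 ran from 520 to 1272 CPM in S100a6-high Cd4 T cells, 251 to 1009 in S100a6-low Cd4 T cells, 212 to 700 in Ccl5-high Cd8 T cells and 151 to 390 in Treg-like cells. In the order of gate means, 2 neighbouring pairs differed in edgeR's quasi-likelihood fit over all T and NK gates with the sample as a block. Klrb1c T cells exceeded Gzmk T cells by 0.76 on the log2 scale (adjusted p = 0.0159), and Ccl5-high exceeded Ccl5-low Cd8 T cells. The other neighbours were not told apart, NK and Klrb1c T cells among them (0.06, SE 0.19, adjusted p = 0.938 in edgeR).

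Id2 was also frequent per cell. When each cell was thinned to 1000 UMIs, which left no cell out, 77.7% of NK cells (exact binomial 95% interval 72.9 to 82.1, counting error only) and 71.9% of Klrb1c T cells had an Id2 UMI, against 1.38% of B cells with an Fcer2a UMI (0.92 to 1.98). Without thinning the shares were 90.5% in NK cells and 3.44% in those B cells. Outside lymphocytes Id2 reached 117 to 196 CPM in Ly6c2-high monocytes.

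Tbx21 and Eomes, the T-box pair, had their highest means in NK cells. Tbx21 stood at 138, 176, 210 and 53.3 CPM in NK cells (young 1, young 2, old 1, old 2), at 82.7, 59.0, 126 and 84.1 in Klrb1c T cells, and at 20.5, 29.6, 18.7 and 79.7 in Ccl5-high Cd8 T cells. The NK value of old 2 rests on 22 cells and lies below the other NK values and inside the range of the T gates. NK cells exceeded Klrb1c T cells in the fit by 0.92 (SE 0.29, adjusted p = 0.0294 in edgeR), a call kept in 6 of 12 alternatives.

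No Tbx21 UMI was seen in the 294 Ccl5-low Cd8 T cells. Eomes had another order among T cells. It stood at 272, 264, 126 and 284 CPM in NK cells, 0, 162, 210 and 231 in Gzmk T cells and 63.8, 85.0, 126 and 124 in Ccl5-high Cd8 T cells. In Klrb1c T cells, where Tbx21 had its next highest mean, Eomes was at 25.8 to 50.5 CPM, below every Ccl5-high Cd8 value. Ccl5-high Cd8 T cells exceeded Klrb1c T cells in Eomes by 1.49 on the log2 scale (adjusted p = 0.0026 in edgeR). The thinned share of cells with an Eomes UMI was 21.7% in NK cells, 8.39% in Ccl5-high Cd8 T cells, 4.17% in Klrb1c T cells and 0.10% in Fcer2a B cells.

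Zeb2, a zinc-finger repressor of mature effector cells, was far higher in NK cells than in any T gate. It stood at 420, 393, 436 and 373 CPM in NK cells (405 ± 28.0, mean ± SD, n = 4), while Ccl5-high Cd8 T cells had 11.1 to 42.0 CPM and Klrb1c T cells 18.4 to 30.1. Gzmk T cells came next with 277, 37.3, 0 and 57.7 CPM, the young 1 value again from 15 cells. NK cells exceeded Gzmk T cells by 2.68 on the log2 scale (adjusted p = 1.59e-13 in edgeR).

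Zeb2 was shared with myeloid cells to an extent that Tbx21 and Eomes were not. It stood at 364 to 444 CPM in Ly6c2-high and 297 to 547 CPM in Ly6c2-low monocytes, and at 49.8 to 62.8 in Fcer2a B cells. B cells, with 9076 of the cells, held 46.0% of its 4834 UMIs, NK cells 6.68% and T cells 2.23%. Its thinned share in Fcer2a B cells, 4.62%, was above those of Klrb1c T cells (3.65%) and Ccl5-high Cd8 T cells (3.15%).

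Prdm1 and Runx3 completed the group of cytotoxic factors. Prdm1, which encodes Blimp-1, was sparse, at 50.4, 40.9, 0 and 35.5 CPM in NK cells, 25.2, 49.7, 31.5 and 23.1 in Gzmk T cells and 9.12, 14.8, 14.0 and 44.3 in Ccl5-high Cd8 T cells. It was not seen in S100a6-high Cd4 or Ccl5-low Cd8 T cells, and none of its neighbours in the order of means differed. Of its 406 UMIs, 30 were in NK cells and 211 in B cells.

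Runx3 was spread more evenly over the T gates than Tbx21, Eomes or Zeb2. It stood at 205, 170, 109 and 124 CPM in NK cells, 151, 211, 115 and 161 in Gzmk T cells, 93.5, 103, 126 and 79.7 in Ccl5-high Cd8 T cells and 110, 59.9 and 77.4 in Ccl5-low Cd8 T cells. S100a6-low Cd4 T cells had 26.7 to 37.5 CPM, below the Cd8 gates. The step from Ccl5-low Cd8 to S100a6-low Cd4 T cells was the pair of neighbours that differed (1.31 on the log2 scale, adjusted p = 0.0257 in edgeR). B cells were not without it, at 29.7 to 46.5 CPM in Fcer2a B cells.

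Maf, Rora and Gata3 had another order, with their highest means over T and NK gates in Treg-like and S100a6-high Cd4 T cells. Rora, which encodes RORα, stood at 156, 139 and 163 CPM in Treg-like cells (young 1, young 2, old 1) and 128, 68.8, 208 and 241 in S100a6-high Cd4 T cells, against 6.61 to 29.7 in S100a6-low Cd4 T cells. NK cells had 13.4, 9.44, 0 and 0 CPM.

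Maf stood at 77.9, 128 and 260 CPM in Treg-like cells and Gata3 at 245, 174 and 163. In S100a6-high Cd4 T cells the samples spread widely, from 20.8 to 206 CPM for Maf and from 0 to 412 for Gata3, with 10 to 19 cells a sample. Both genes also had a high mean in Ccl5-low Cd8 T cells that came from old 2 alone, where Maf was at 335 CPM (13 UMIs in 12 cells) and Gata3 at 284, against 0 to 3.49 and 24.4 to 48.6 CPM in the young samples. Gata3 was found in every T and NK gate, at 35.5 to 70.5 CPM in NK cells. No neighbours in the order of means differed for Maf, Gata3 or Prdm1.

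**Figure D2:**
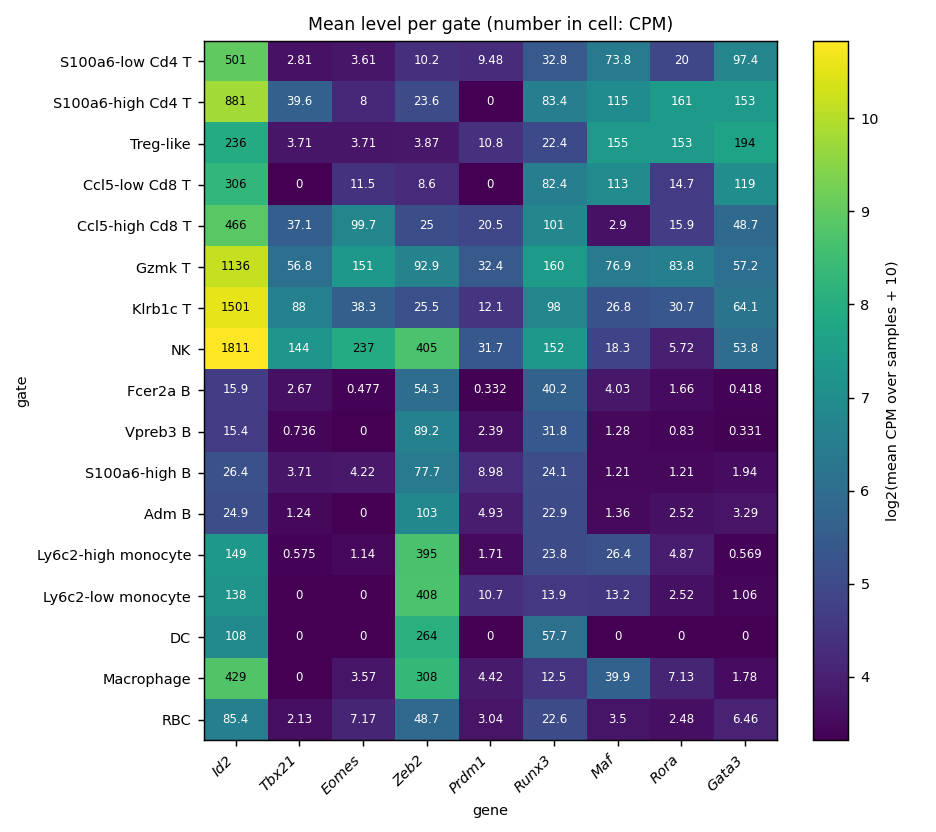
Mean level over samples of each of the 9 genes in each gate with at least 10 cells, coloured by log2(CPM + 10) with the CPM printed in each cell, T and NK gates above B, monocyte and other gates. Zeb2 is high in NK cells and in both monocyte gates, while Tbx21 and Eomes are low outside T and NK cells.

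Cells of the NK gate often held several members at once. At 1000 UMIs per cell, 91.7% to 96.1% of NK cells per sample had a UMI of at least 1 member, against 9.01% to 11.4% of Fcer2a B cells. UMIs of at least 2 members were found in 63.3%, 63.3%, 52.1% and 31.8% of NK cells, the lowest share again from the 22 cells of old 2. In S100a6-low Cd4 T cells the share with any member was 23.8%, 32.7%, 66.7% and 33.3%, the high value being 8 of 12 cells of old 1.

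Across 17 gates with at least 10 cells in at least 2 samples, the log2 mean levels (10 CPM added) of some members ran together. Pearson's r was 0.88 for Tbx21 and Eomes, 0.82 for Runx3 with each of them, 0.83 for Rora and Gata3 and 0.81 for Maf and Rora. Zeb2 stood apart, with r of −0.05 with Tbx21 and −0.70 with Gata3. The 17 points share libraries and base composition, and these values are a description.

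Over the same 17 gates and 4661 genes, the genes most like Tbx21 were Fasl (r = 0.98), Il18rap (0.96) and Ifitm10 (0.93), and those most like Eomes were Samd3 and Baiap3 (both 0.95) and Ifitm10 (0.94). Id2 was most like Hcst (0.92), Fyn and Pik3r5 (both 0.90), Zeb2 like B4galt5 (0.92), Litaf and Tyrobp (both 0.91), and Prdm1 like Baiap3 (0.87), Ccl4 (0.85) and Klrc1 (0.84). Runx3 was most like Slc20a1 (0.91), Cst7 and Rcn1 (both 0.89). Rora was most like Acsbg1 (0.94), Tmem191c (0.91) and Ubash3a (0.90), Gata3 like Prkcq (0.98), Galnt6 and Cd96 (both 0.97), and Maf like Atp1b3 (0.88), Sdcbp2 (0.87) and Arhgap31 (0.86).

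NK cells were first compared with S100a6-low Cd4 T cells, the gate with the naive T cell genes. In NK cells, 6 of the 9 members were higher and none was lower at an adjusted p of 0.05, where 15.3% of the 6882 genes tested were called. On the log2 scale Id2 was higher by 2.09 (SE 0.22, adjusted p = 1.41e-18), Tbx21 by 4.52 (SE 0.49, adjusted p = 3.21e-17), Eomes by 4.64 (SE 0.41, adjusted p = 7.23e-25) and Zeb2 by 4.37 (SE 0.33, adjusted p = 3.22e-32). Runx3 was higher by 1.97 (SE 0.31, adjusted p = 1.79e-08) and Prdm1 by 2.23 (SE 0.64, adjusted p = 0.00554), the latter called in 7 of 12 alternatives. Maf was at 16.8 to 22.0 CPM in NK cells and 19.8 to 208 in the Cd4 T cells (adjusted p = 0.0556). All p-values are from edgeR.

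Genes known to act with or against these factors were counted from lists. Of 18 effector genes, 13 were higher in NK cells and 4 were lower, with a median of 3.75 against 0.04 for all genes. Gzma (6.52) and Gzmb (6.60), which encode granzymes, S1pr5 (4.51), an exit receptor, and Il2rb (2.98), a receptor chain for interleukin 15, were higher. The 4 lower genes were Ccr7 (fell by 5.11), Il7r (fell by 4.14), Cd28 and Cd27, which belong to the naive and memory side of the list. Of 13 naive and quiescence factors, 12 were tested and 10 were lower, among them Lef1 (−3.35), Tcf7 (−3.76) and Bcl11b (−7.14), with a median of −1.40. Of 21 partner and other lineage factors, 12 were tested and 6 were higher, Irf8 (5.35), Bhlhe40 (4.38), Tcf4 (2.42) and Stat4 (1.77) among them. Of 13 type 2, type 17 and regulatory genes, 2 could be tested, and Icos was lower (−2.85).

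**Figure D3:**
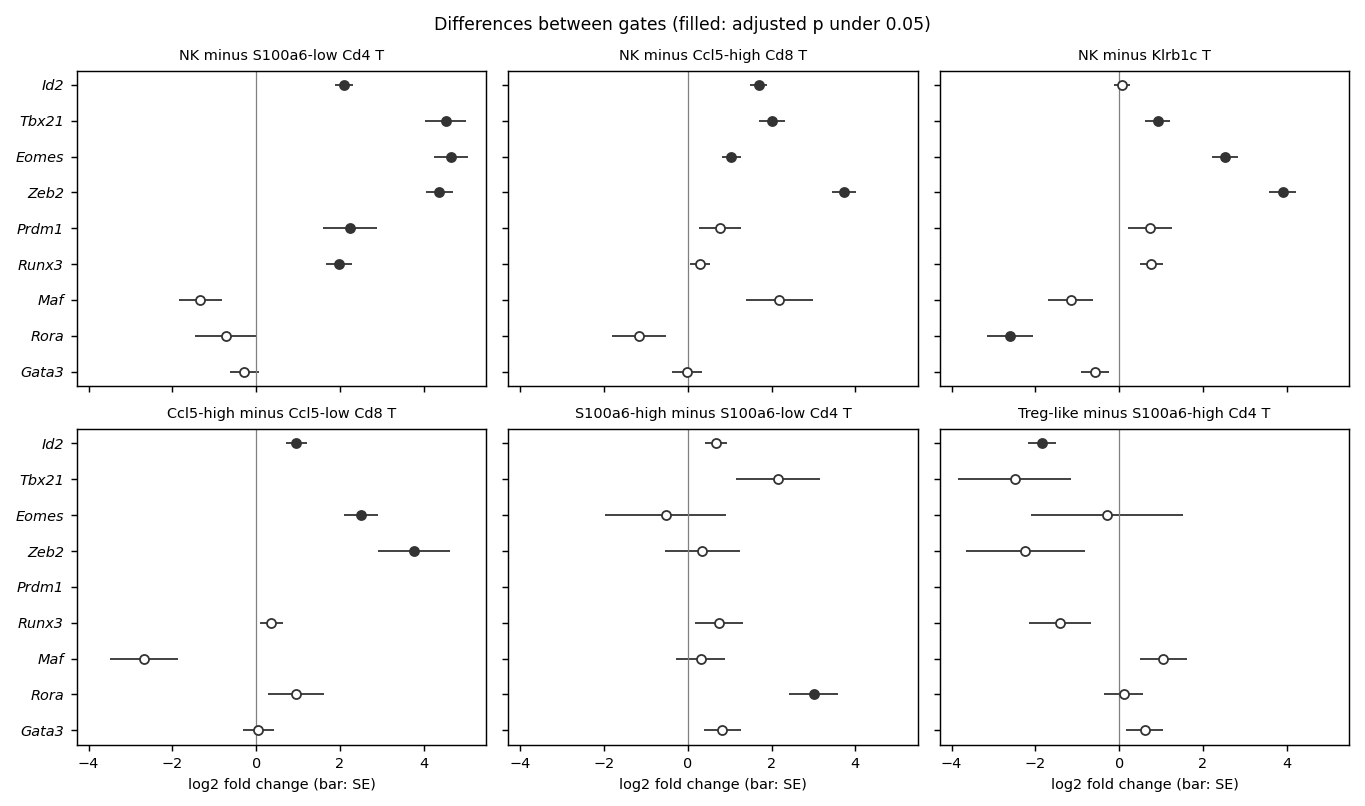
Difference in log2 level between gates for each member, with bars of 1 SE and filled points where the adjusted p was under 0.05, for the contrasts of NK and T cell gates, leaving out members with no UMI in one of the gates. In NK cells against Ccl5-high Cd8 T cells, Zeb2 is higher by 3.73 and Id2 by 1.69.

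The Ccl5-high Cd8 gate came next, in which Gzma was found in 0% to 17.8% of cells per sample and Il7r, a memory and naive T cell gene, in 52.1% to 60% (both named after their values were seen). In NK cells 4 members were higher than in Ccl5-high Cd8 T cells (13.5% of genes called). Zeb2 was higher by 3.73 (SE 0.28, adjusted p = 3.66e-32 in edgeR), Tbx21 by 2.01 (SE 0.31, adjusted p = 1.15e-08), Id2 by 1.69 (SE 0.20, adjusted p = 9.92e-15) and Eomes by 1.04 (SE 0.23, adjusted p = 0.000114). Eomes was called in 9 of 12 alternatives and the other 3 in all 12. In this contrast 12 effector genes were higher and 5 lower (median 1.94), and 6 naive factors were lower and none higher (median −1.10), against a median of −0.01 for all genes.

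Against Klrb1c T cells, which carry the receptor gene Klrb1c that also served in the NK gate, 4 members differed (7.8% of genes called). Zeb2 was higher in NK cells by 3.90 (SE 0.32, adjusted p = 5.56e-27 in edgeR), Eomes by 2.53 (SE 0.31, adjusted p = 5.99e-13) and Tbx21 by the 0.92 given above. Rora was lower in NK cells (−2.61, SE 0.56, adjusted p = 0.000148), with 52.7, 70.0, 0 and 0 CPM in Klrb1c T cells. The Rora difference thus rests on the young samples. Of the lists, 10 effector genes were higher and 5 lower (median 1.42), and 3 partner factors were higher (median 0.30, against 0.04 for all genes).

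Within Cd8 T cells, Ccl5, a chemokine gene switched on in effector and memory cells, split the gate. Of the 9 members, 5 were higher in Ccl5-high cells, where 1.85% of genes were called. Tbx21 had 30 UMIs in Ccl5-high and 0 in Ccl5-low cells, at least 8.49-fold higher against a floor of 3 UMIs over the gate (adjusted p = 9.95e-06 in edgeR). Prdm1 had 16 UMIs against 0, at least 4.53-fold higher (adjusted p = 0.00296). Zeb2 had 24 UMIs against 1, a ratio of 20.4 with a counting interval of 3.32 to 837 (adjusted p = 0.00136 in edgeR). These UMIs are pooled over unlike samples. The Ccl5-low side holds 191, 88 and 12 cells (young 1, young 2, old 2). The Ccl5-high side holds 120, 73, 63 and 30 (young 1, young 2, old 1, old 2). The ratio and the folds thus mix age with gate. The fits had the sample as a block, but this block is shared by all T and NK gates. It does not take out an age difference that is particular to 1 gate. Tbx21 was called in 10 of 12 alternatives, Prdm1 in 8 of 11 and Zeb2 in 8 of 12. Without young 1 Prdm1 (adjusted p = 0.16 in edgeR) and Zeb2 (adjusted p = 0.453) were not called.

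The other 2 were measured in both gates. Eomes, at 15.7, 18.7 and 0 CPM in Ccl5-low cells, was higher by 2.50 (SE 0.40, adjusted p = 2.29e-07 in edgeR), and all 12 alternatives kept the call. Id2 was higher by 0.96 (SE 0.25, adjusted p = 0.00909), with 197, 206 and 516 CPM in Ccl5-low cells against 212, 296, 657 and 700 in Ccl5-high cells, and this call was kept in 4 of 12 alternatives. In young 1 the 2 gates were thus close in Id2. Old 1 entered on the Ccl5-high side alone, so the fitted 0.96 is not free of age. Runx3, at 59.9 to 110 CPM in Ccl5-low cells, overlapped the Ccl5-high values. Among effector genes 7 were higher, with Cxcr3 (2.28), Il2rb (2.40), Fasl (2.94) and Gzmb (2.98), and Ccr7 was lower (−1.08), with a list median of 1.27 against 0.06 for all genes. Lef1 (−1.20) was the 1 naive factor that was lower, and Runx2 (2.61) the 1 partner factor that was higher.

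Within Cd4 T cells, S100a6, a gene raised in memory cells, split the gate, and Rora was the 1 member called (3.01, SE 0.59, adjusted p = 0.000249 in edgeR), where 2.17% of genes were called. Its samples did not overlap between the gates. The call was lost without cells with a platelet UMI (1.98, adjusted p = 0.46 in edgeR), with thinned cells (3.14, adjusted p = 0.051) and without young 1 (2.46, adjusted p = 0.083), and leaving out old 1 gave 2 called members. Of the lists, Lef1 (−1.78), Satb1 (−3.03) and Foxp1 (−1.14) were lower among naive factors, and the effector genes were evenly split, with 2 higher, Cxcr3 (2.40) and Il2rb (1.74), and 2 lower, Ccr7 (−1.64) among them. The effector list's median was −0.21, and 1.20 with the 4 genes that had no UMI in a gate set at their bound, against −0.28 for all genes.

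A wider gate was tried after the levels had been seen, since most T cells without a Cd8 UMI lack a Cd4 UMI too. With all Cd8-negative T cells in place of Cd4 T cells, 4 members were higher in S100a6-high cells: Id2 by 1.09 (SE 0.22, adjusted p = 0.000419), Tbx21 by 1.92 (SE 0.52, adjusted p = 0.0178), Rora by 1.87 (SE 0.34, adjusted p = 6.59e-05) and Gata3 by 1.31 (SE 0.24, adjusted p = 0.000103), all in edgeR. Id2 stood at 275, 365, 791 and 420 CPM in the low gate and 765, 1241, 886 and 928 in the high gate. Both young samples and old 2 lay far lower in the low gate, and old 1 lay close. The wider gates held 1011 S100a6-low and 241 S100a6-high cells, against 306 and 50 in the Cd4 gates. The count of 4 members is not set against the share of all genes called with these gates, so it cannot be compared with the 1 call above.

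Treg-like cells were set against S100a6-high Cd4 T cells. Id2 was the 1 member that differed, and it was lower in Treg-like cells (−1.85, SE 0.33, adjusted p = 4.45e-05 in edgeR), where 0.363% of genes were called. Its 3 Treg-like values, 151 to 390 CPM, lay below the 4 S100a6-high values, 520 to 1272. The call on Id2 was lost without young 2.

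NK cells themselves were split by a UMI of Klrg1 or S1pr5, genes of mature NK cells. Zeb2 was at 556, 438, 485 and 483 CPM in cells with such a UMI and at 249, 343, 197 and 118 in cells without, and these ranges do not overlap. The old values of the cells without come from only 9 and 7 cells, and these sums entered the fit like the others. The fit gave 0.96 (SE 0.25, adjusted p = 0.0492 in edgeR), with 0.234% of genes called. The call was lost in 9 of 12 alternatives, every one that left out a sample included. Tbx21 differed by 1.05 without being called (adjusted p = 0.431). Gzma (0.98) and Gzmb (0.82) were called higher beside the 2 gate genes.

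In other cell types 3 members could be tested in B cells, and S100a6-high B cells differed from Fcer2a B cells in all 3, where 23.1% of genes were called. Id2 (0.82, SE 0.27, adjusted p = 0.0253) and Zeb2 (0.55, SE 0.16, adjusted p = 0.00944) were higher, and Runx3 (−0.74, SE 0.21, adjusted p = 0.00941 in edgeR) was lower. Zeb2 was at 69.3 to 96.5 CPM in S100a6-high against 49.8 to 62.8 in Fcer2a B cells. Prdm1 and Eomes did not pass the filter on mean level in B cells. With no filter, S100a6-high B cells had more Prdm1 by 4.25 (SE 0.65, adjusted p = 3.49e-09 in edgeR). They also had more Eomes by 2.97 (SE 1.03, adjusted p = 0.0319 in edgeR). All 9076 B cells held only 28 Eomes UMIs (0.93 CPM). With no filter, Eomes was also lower in old than in young S100a6-high B cells (−4.31, SE 1.08, adjusted p = 0.00557 in edgeR). Between Ly6c2-low and Ly6c2-high monocytes, 0 of 4 members tested were called by edgeR or by DESeq2, which gave no adjusted p for Maf and Runx3, where edgeR called 14.2% of genes and 1583 of 6506 genes had an unadjusted p under 0.05.

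Age was compared within each gate, old minus young, with 2 samples of each. Over the 14 gates compared, 6 results on members were called, and 5 of them were in Cd4 or Cd8 T cells, where both gates of a class were also pooled. Pooling brings in the shift in their makeup: Ccl5-low Cd8 T cells made up 18.6% and 11.2% of young T cells and 1.30% and 6.38% of old ones, and S100a6-low Cd4 T cells 16.8% and 13.9% against 5.22% and 6.38%. Gzmk T cells went from 1.46% and 3.30% to 15.2% and 18.1%.

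Id2 rose with age in Ccl5-high Cd8 T cells, from 212 and 296 CPM to 657 and 700 (1.39 on the log2 scale, SE 0.20, adjusted p = 0.00049 in edgeR). Of 7 members tested there, Id2 was the 1 called, against 0.582% of genes. The thinned share of cells with an Id2 UMI went from 15% and 17.8% to 34.9% and 46.7%. The call was kept in 9 of 13 alternatives, with values of 1.01 to 1.62 over all of them and adjusted p of 6.98e-09 to 0.838. It was lost without young 1 or young 2, with stricter gates and with thinned cells.

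A platelet UMI was present in 50.8% and 36.7% of the Ccl5-high Cd8 T cells of old samples, against 0% and 4.11% in young ones. The 4 monocyte markers, 2 of them at 0 in each sample, summed to 50.2 and 96.1 CPM in young and 294 and 177 CPM in old cells of this gate, and their part in the difference was not tested. Without such cells the difference in Id2 was 1.34 (adjusted p = 0.0019), and in cells with no Klrd1 UMI, a choice made after the levels were seen, it was 1.54 (adjusted p = 5.5e-05 in edgeR).

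**Figure D4:**
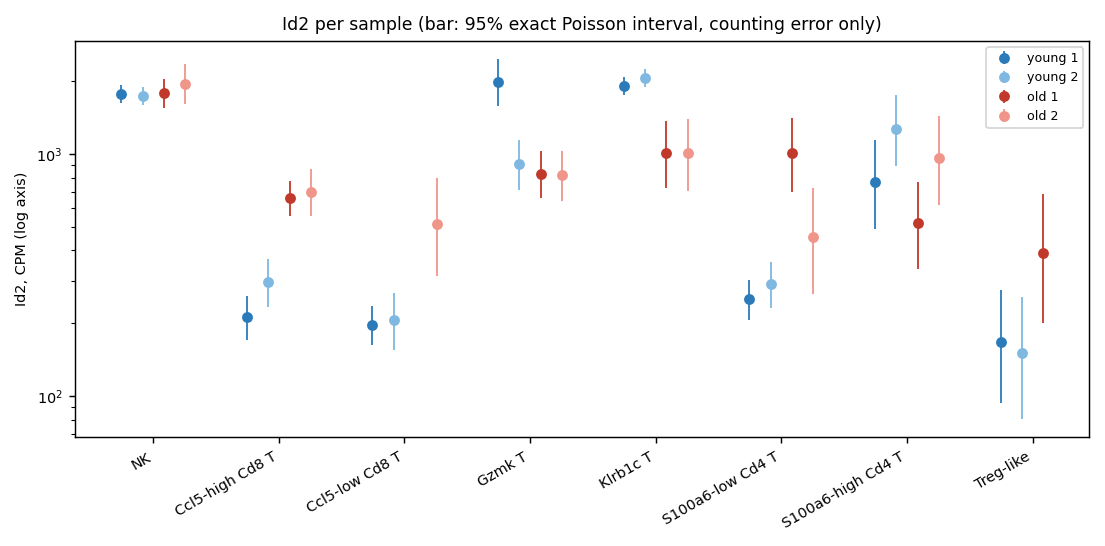
Level of Id2 in CPM (log axis) in NK and T cell gates, with 1 point per sample and bars for the exact Poisson 95% interval, which covers counting error only. In Ccl5-high Cd8 T cells the old samples (657 and 700) lie above the young (212 and 296), in Klrb1c T cells they lie below, and in NK cells the ages overlap.

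In Klrb1c T cells Id2 fell with age, from 1918 and 2064 CPM to 1011 and 1010 (−1.15, SE 0.22, adjusted p = 0.0017 in edgeR), the 1 call among 8 members tested, with 0.285% of genes called. Each old sample gave 13 cells. The call was kept in 5 of 10 alternatives, with values of −1.90 to −0.984, and was lost without young 1 (−1.24, adjusted p = 0.057) and without young 2 (−1.06, adjusted p = 0.34). The makeup of the gate moved too: Cd8b1-positive cells were 53.8% and 0% of the Klrb1c T cells of old samples, against 12.5% and 5.81% in young ones, and Cxcr6, a homing receptor gene named after its values were seen, went from 688 and 748 CPM to 101 and 56.1. Of the old cells 61.5% and 23.1% held a platelet UMI, and no young cell did. In the Klrb1c T cells without a Cd8 UMI, also chosen after the levels were seen, Id2 was at 2044 and 2191 CPM in young and 1376 (6 cells) and 948 (10 cells) in old samples, and no fit was made. The part of makeup or platelet RNA in the difference was not tested.

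NK cells gave no age call. None of 4829 genes passed in edgeR (0%), though 223 had an unadjusted p below 0.05, while DESeq2 called 8, none a member, and Id2 differed by 0.10 (SE 0.14, adjusted p = 0.971). The difference between the age effects was itself tested: that of Id2 in NK cells less that in Ccl5-high Cd8 T cells was −1.31 (SE 0.23, adjusted p = 8.95e-06 in edgeR with the sample as a block), the 1 call among 9 members, where 0.162% of genes were called. The call was kept in 5 of 11 alternatives, with values of −1.49 to −1.06, and was lost without young 1, young 2 or old 1. For S100a6-high less S100a6-low Cd4 T cells, none of 7 members was called by edgeR, where 0.0299% of genes were called and 196 had an unadjusted p under 0.05. For Ccl5-high less Ccl5-low Cd8 T cells the old Ccl5-low cells are 1 sample of 12 cells, so the absence of a call on a member says little, beside 1.71% of genes called and 642 with an unadjusted p under 0.05. DESeq2 called no member in either, and in the Cd8 comparison it gave an adjusted p for Id2 alone.

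With both Cd8 gates pooled, 2 of 6 members tested rose with age (3.08% of genes called). Id2 went from 203 and 251 CPM to 628 and 653 (1.44, SE 0.15, adjusted p = 1.11e-05 in edgeR), and all 12 alternatives kept the call. Eomes went from 36.6 and 52.1 CPM to 120 and 92.3 (1.28, SE 0.32, adjusted p = 0.0345), a call kept in 5 of 12 alternatives. Zeb2 (adjusted p = 0.0725) and Tbx21 (adjusted p = 0.252) were not called. Among naive factors 4 fell and none rose, and among effector genes 3 rose and 2 fell.

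With both Cd4 gates pooled, 2 of 5 members tested rose (1.87% of genes called). Rora went from 14.4 and 21.7 CPM to 135 and 112 (2.6 on the log2 scale, SE 0.55, adjusted p = 0.00398 in edgeR), kept in 5 of 9 alternatives, and Id2 from 284 and 379 to 722 and 657 (0.86, SE 0.23, adjusted p = 0.0323), kept in 3 of 11. In these gates 41.9% and 36.4% of old cells held a platelet UMI, and 0.549% and 0% of young ones did. Without those cells Id2 differed by 0.34 (adjusted p = 0.85). Without young 1 it differed by 0.62 (adjusted p = 0.85), without old 1 by 0.81 (adjusted p = 0.51) and without old 2 by 0.90 (adjusted p = 0.18). The pooled gate held 10, 11, 19 and 10 S100a6-high cells (young 1, young 2, old 1, old 2) beside 172, 110, 12 and 12 S100a6-low cells.

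The other gates gave no call on a member. In S100a6-low Cd4 T cells 0 of 5 members were called (0% of 4784 genes in edgeR, of which 350 had an unadjusted p below 0.05, and DESeq2 called 9), in S100a6-high Cd4 T cells 0 of 7 (0.0194%) and in Gzmk T cells 0 of 9 (0.158%). In Gzmk T cells Eomes was at 0 and 162 CPM in young and 210 and 231 in old samples. In B cells the counts were 0 of 2 for Fcer2a (0.783%), 0 of 3 for S100a6-high (0.504%), 0 of 3 for Adm (0.191%) and 0 of 2 for Vpreb3 B cells (0.489%). In monocytes they were 0 of 2 for Ly6c2-low (0.254%) and 0 of 4 for Ly6c2-high cells (0.208%). DESeq2 called no member in any of these gates either, though it gave no adjusted p for Rora and Runx3 in S100a6-low Cd4 T cells. Unadjusted p-values under 0.05 were given by edgeR for Id2 in S100a6-low Cd4 T cells, Gzmk T cells and Ly6c2-low monocytes, for Zeb2 in Vpreb3 B cells and Ly6c2-low monocytes, for Runx3 in NK cells and S100a6-high B cells, and for no other member tested in these gates. Eomes in S100a6-high B cells, called lower in old samples with no filter as given above, did not pass the filter here.

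**Figure D5:**
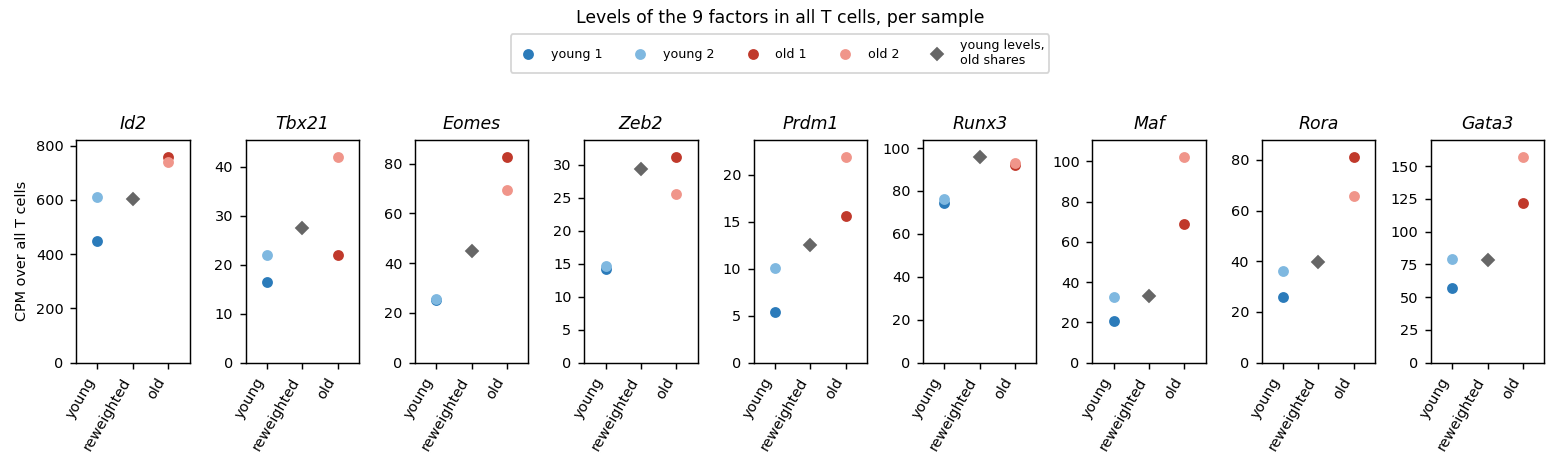
Level of each member in all T cells pooled, in CPM, for the 2 young and 2 old samples, with a diamond at the level that young subsets would give at the old subset shares. T cells in none of the named subsets were weighted together. Zeb2 and Runx3 at old shares (29.4 and 96.0) lie near the old levels (28.7 and 92.7), while Maf (32.9 against 84.3) and Gata3 (78.2 against 138) lie below them.

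All T cells together were compared after the levels per sample had been seen. Of 7 members tested, 4 rose with age, where 7.34% of genes were called, and Zeb2 and Prdm1 did not pass the filter on low values. Eomes went from 25.3 and 25.6 CPM to 82.9 and 69.5 (1.48, SE 0.21, adjusted p = 0.000405 in edgeR), and Maf from 20.5 and 32.5 to 68.8 and 102 (1.60, SE 0.26, adjusted p = 0.00149). Rora went from 25.9 and 36.2 to 81.3 and 65.8 (1.17, SE 0.23, adjusted p = 0.00533), and Gata3 from 57.3 and 79.2 to 122 and 157 (0.93, SE 0.20, adjusted p = 0.00862). In all 4 genes both old samples lay above both young ones. The same held for Id2 and Runx3, which were not called, and for Zeb2 and Prdm1, which were not tested. How many of all genes had this order was not counted. Eomes and Maf were called in all 11 alternatives, Rora in 9 of 11 and Gata3 in 10 of 12. Gata3 without young 1 differed by 0.68 (adjusted p = 0.067).

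The other T cell members were not called. Id2 was at 449 and 612 CPM in young and 760 and 741 in old T cells (0.39, adjusted p = 0.109), Tbx21 at 16.5 and 22.0 against 21.9 and 42.1, with overlap, and Runx3 at 74.4 and 76.4 against 92.2 and 93.3 (0.19, adjusted p = 0.602 in edgeR). Zeb2 was at 14.1 and 14.6 against 31.3 and 25.6 CPM, and Prdm1 at 5.39 and 10.1 against 15.6 and 21.9.

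The subset shares were set against these pooled values. When the young level of each subset was weighted by the old subset shares, Zeb2 came to 29.4 CPM and Runx3 to 96.0, against observed old levels of 28.7 and 92.7 and young levels of 14.4 and 75.3. For Eomes the weighted level was 45 CPM (young 25.4, old 76.7), for Rora 39.9 (young 30.3, old 74.2), for Id2 605 (young 518, old 751) and for Tbx21 27.5 (young 18.8, old 31.2). Maf reached 32.9 of an old 84.3 CPM and Gata3 78.2 of 138. The weighted levels carry no error and no test. T cells in none of the named subsets were weighted together, so a shift in makeup among them is not in these levels. Among all Cd8-negative T cells, Cd4 gates included, S100a6-low cells numbered 517, 429, 33 and 32 (young 1, young 2, old 1, old 2). The S100a6-high cells numbered 62, 48, 73 and 58, and the part of this shift was not tested. Of the lists, 7 of 12 naive factors fell in all T cells (median −0.64, against −0.01 for all genes), among them Lef1 (−1.45) and Satb1 (−1.07). Among effector genes 3 rose, Klrg1 (2.47), Cxcr3 (0.93) and Il18rap (1.39), and 3 fell, Ccr7 (−1.38) and Cd27 (−0.54) among them, with a median of 0.08.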

How the data were processed

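The deposited table holds UMI counts per gene and cell, which the authors made with Cell Ranger against mm10, aggregating the samples of each age, and filtered on genes per cell and mitochondrial reads. Seurat 2.3.0 is named in the submitters' processing notes. A deposited table of cell labels (unit other) gave each cell's sample.

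Gates used raw UMIs of 39 genes, none a member (0 shared). A gate for Trdc T cells could not be filled from the table used here. No doublet caller was run, and 791 cells with at least 2 UMIs of Cd3 genes and at least 2 of B cell genes were not gated as T cells. The members, lists and tests were chosen with earlier results of these data known, and every member was named in every gate. The genes of like pattern were the 3 with the highest Pearson's r on log2(mean CPM + 10) among genes reaching 50 CPM in a gate, without members and gate genes.

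Counts were summed per gate and sample (at least 10 cells) and tested with edgeR 4.0.16 (quasi-likelihood, TMM, R 4.3.3), with Benjamini-Hochberg adjustment over all genes tested and a threshold of 0.05. The NK split was the exception, with sums of fewer cells kept. Age fits kept genes seen in a mean of 5% of cells, since transcription factors are sparse, and subset fits kept genes with a mean of 10 CPM and used the sample as a block. SEs were taken from the log2 fold change and the F statistic. Intervals on shares are exact binomial at 95% and cover counting error only, and the floor of a gate with no UMI was 3 counts. For shares, each cell was thinned to 1000 UMIs, and the shallowest cell had 1117. The fits were tested on simulated data with known changes. DESeq2 1.42.0, other size factors, no filter, a 10% filter in each age, stricter gates, thinned cells, cells without a platelet UMI, a replicate block and each sample left out were alternatives, and 4 more (Cd8-negative T cells, all T cells pooled, Klrb1c T cells without Cd8 and Ccl5-high Cd8 T cells without Klrd1) were added after seeing the data. Tables were built with pandas 2.3.3 and numpy 2.4.6 in Python 3.11.15, exact intervals with scipy 1.17.1 and plots with matplotlib 3.10.9. Promoters are RefSeq's for GRCm38.p6. The values of 1 gene of the effector list are not reported here.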

Additional observations from a re-analysis of the deposited data

Results flagged for a closer look

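The age difference of Id2 in NK cells less that in Ccl5-high Cd8 T cells was −1.31 on the log2 scale, and this difference between the gates was tested directly (SE 0.23, adjusted p = 8.95e-06 in edgeR with the sample as a block). Id2 stood at 1773, 1734, 1786 and 1952 CPM in NK cells and at 212, 296, 657 and 700 CPM in Ccl5-high Cd8 T cells (young 1, young 2, old 1, old 2). DESeq2 gave an adjusted p of 0.268 for the same term.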

How the results depend on the processing

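The 36 called results on single members were each set against their alternatives, and none changed sign. In 324 of these checks the call was kept and in 95 it was lost. Results that were not called were not followed in this way. Age calls among members, 6 as reported, were 3 with DESeq2 (no adjusted p for Rora in the pooled Cd4 gates), 1 with stricter gates, 3 without cells with a platelet UMI, 2 with thinned cells and 1 to 7 with a sample left out. Calls between Ccl5-high and Ccl5-low Cd8 T cells, 5 as reported, were 2 with DESeq2 (no adjusted p for Prdm1), 1 with stricter gates, 1 with thinned cells and 3 to 5 with a sample left out. Calls between the Cd4 gates, 1 as reported, were 2 with RLE size factors, 0 with DESeq2 (which gave Rora 3.29 on the log2 scale and no adjusted p), 0 with thinned cells, 4 with Cd8-negative T cells and 0 to 2 with a sample left out. Calls between NK and Klrb1c T cells, 4 as reported, were 2 to 5 with a sample left out. The Treg-like call was lost with thinned cells (0) and ranged from 0 to 1 with a sample left out. The B cell calls, 3 as reported, were 5 with no filter, 1 without cells with a platelet UMI and 1 with thinned cells. The NK split and the age by gate term, 1 call each, were 0 with DESeq2, 0 with stricter gates and 0 with thinned cells. The NK split was also 0 without cells with a platelet UMI, 0 with no replicate block and 0 whichever sample was left out, and the age by gate term 0 to 1 with a sample left out. The cause of these changes was not tested, except that thinned sums and fits with fewer samples hold fewer counts by construction.

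Samples with the same number did not deviate together (correlations of −0.133 to 0.0166 over 15 gates). With 2 samples of each age this cannot tell whether same-numbered samples were handled together, and the labels do not say. With the replicate block the age calls were 4, losing Id2 in both Cd4 gates pooled (adjusted p = 0.148) and Eomes in both Cd8 gates pooled (adjusted p = 0.078). With no replicate block the counts of the other comparisons were 6, 4, 1, 4, 3, 1, 2 and 0 in the order NK against S100a6-low Cd4, Cd8, Cd4, NK against Cd8, NK against Klrb1c T, Treg-like, B cells and monocytes. Stricter gates, platelet-free cells and Cd8-free cells could not be fitted for age in Klrb1c T cells, with under 10 old cells in a sample. Depth limits Prdm1, Tbx21, Rora and Maf, with few UMIs in most T gates, and small old gates limit the age results in T cells.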

Other observations

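Co-detection within NK cells was sparse and read as a description. Eomes had a UMI in 31.4% of NK cells with a Tbx21 UMI and 39.8% of those without in young 1, 34.8% and 40.9% in young 2, 27.8% and 23.3% in old 1, and 33.3% and 42.1% in old 2.

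Monocytes and macrophages held 19.7% of the Zeb2 UMIs with dendritic cells included, and ungated cells held 21.5% of them. Macrophages, of which 2 samples had at least 10, had Id2 at 416 and 442 CPM.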
